A study of Sus scrofa with 12 samples.

Results

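RNA from pig (Sus scrofa) oocytes after 12 h of maturation in vitro was compared with RNA from oocytes at 0 h, before maturation. The comparison took 6 of the 12 libraries of the series, chosen by their titles: 3 libraries at 12 h (replicates 1, 3 and 5) and 3 at 0 h (replicates 2, 3 and 4). The other 6 libraries, at 28 h and 44 h, entered the fit only as further estimates of the spread between libraries of a time. Both groups were denuded oocytes, freed of the surrounding cumulus cells, and the series title places maturation in a medium of defined composition. The labels give no breed, age or follicle size of the donors, no number of oocytes in a library and no agent that differs between 12 h and 0 h besides time. Nothing in them ties a library to an animal or a culture, and the p-values below therefore reflect the spread between libraries only, which may be technical.

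A fully grown mammalian oocyte is held in prophase of the first meiotic division, with condensed and largely silent chromatin and a store of maternal messenger RNA laid down during growth. Release from the arrest follows a fall in cyclic AMP, which lowers the activity of protein kinase A, and is followed by germinal vesicle breakdown, spindle assembly and movement of organelles on microtubules and actin. In pig oocytes, resumption of meiosis in culture takes far longer than in mouse oocytes, and through it stored messages are translated, re-polyadenylated or degraded in turn.

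The 3 libraries at 12 h held 24273227, 23055288 and 24933230 gene counts, and those at 0 h 23739391, 25744280 and 24221249. Levels are counts scaled by TMM to a common total (CPM), in replicate order 1, 3 and 5 for 12 h and 2, 3 and 4 for 0 h. Such levels are shares: a change in one gene's RNA, in the total RNA of an oocyte or in the mix of cells cannot be told apart in them. Oocyte markers were abundant: 16 of them together stood between 13650 and 15020 CPM at 12 h and between 14770 and 17200 CPM at 0 h. Of 31 cumulus and granulosa markers in the table, FSHR, AREG and LUM had 0 counts in all 6 libraries. The whole list summed to between 974 and 1005 CPM at 12 h and between 920.1 and 1004 CPM at 0 h, and its 24 markers below 10 CPM to between 16.6 and 23.7 CPM at 12 h and between 18.7 and 25.3 CPM at 0 h. The theca and stromal list (19 markers, CYP17A1, COL6A1, LUM and POSTN at 0 counts) ran from 42.3 to 54.0 CPM in the 12 h libraries, against 53.1 to 58.2 CPM in the 0 h libraries. The blood and endothelial list (19 markers, ALAS2 at 0 counts) ran from 357 to 376 CPM in the 12 h libraries, against 350.4 to 401 CPM in the 0 h libraries. Replicate 5 of 12 h lay farthest from its group: its root mean square log2 distance to the other 12 h libraries was 0.564 and 0.567, and 1.35% of its counts were mitochondrially encoded, against 0.758% and 0.654% in replicates 1 and 3 of 12 h. Replicate 3 of 0 h lay almost as near to replicate 3 of 12 h (0.423) as to its nearest 0 h library (0.420). Replicates 1 and 3 of 12 h were both nearer to that 0 h library (0.4495 and 0.4234) than to each other (0.4602). By this distance over all genes tested, the 12 h libraries did not stand apart from 0 h as a group. Multidimensional scaling of the 12 libraries used the 500 genes that differed most in each pair. On its dimension 2 the 12 h libraries lay at −0.067, 0.001 and −1.546, and the 0 h libraries at 0.268, 0.341 and 0.742. On dimension 1, replicate 5 of 12 h (−0.549) lay within the 0 h range (−0.894 to −0.539).

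With every library in the fit, few transcripts were called, and most of those were scarce at 0 h and higher at 12 h. Of 12977 genes that passed the filter on low counts, 27 were called, which is 0.208% of genes tested (edgeR's quasi-likelihood test, Benjamini-Hochberg adjusted p under 0.05). At 12 h, 23 genes were higher (0.177%) and 4 were lower (0.0308%). Both the number of calls and the balance of direction changed without replicate 3 of 0 h: 261 genes were then called, 159 of them lower. DESeq2 called 72 genes, 27 of them lower, and edgeR without a filter 64, 28 of them lower. All 23 higher genes and all 4 lower genes had no overlap between the libraries of the times; over all genes tested, 6.3% had every 12 h library above every 0 h library and 7.05% the reverse. Of the 23 higher genes, 13 averaged under 1 CPM at 0 h and 20 were at least 2-fold higher. Together the 23 genes took 871, 819.8 and 998 CPM at 12 h, against 459, 527 and 457 CPM at 0 h. The 4 lower genes took 179.5, 184 and 189 CPM at 12 h, against 229.6, 234 and 246 CPM at 0 h.

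**Figure D1:**
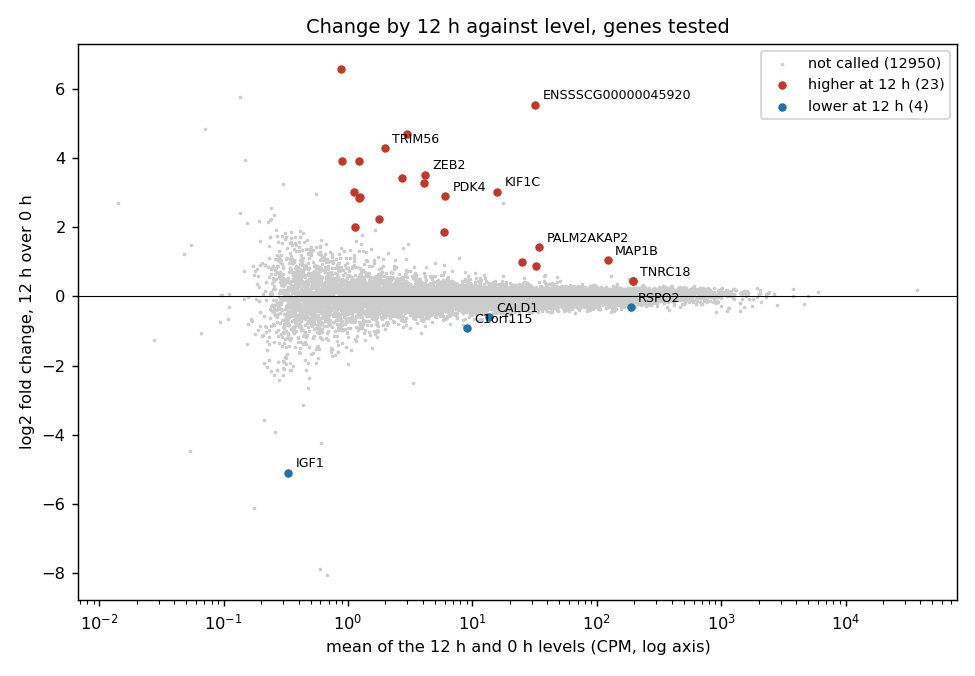
Each point is 1 of the 12977 genes tested, with the mean of its 12 h and 0 h levels (CPM, log axis) across and its log2 fold change, 12 h over 0 h, upward. Red points are the 23 genes called higher at 12 h and blue points the 4 called lower; most red points lie at low levels, while grey points stay close to 0 at high levels.

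Most other genes differed little in level. The median log2 fold change over genes tested was −0.01, 5% of genes lay below −0.47 and 5% above 0.41. In the fit 312 genes differed by more than 2-fold, called or not. Of these, 253 averaged under 1 CPM and 53 from 1 to 10 CPM, where few counts set the fold. At an unadjusted p under 0.05 there were 1461 genes, 11.3% of those tested, with 730 higher (5.63%) and 731 lower (5.63%) at 12 h. Their direction differed with abundance. Among genes of 10 to 100 CPM, 241 were higher and 398 lower at that unadjusted level; of the 437 such genes at 100 to 1000 CPM, 329 were higher. It also differed with gene model length, derived from the deposited RPKM and counts: in the shortest 20% of genes 56 were higher and 265 lower, and in the longest 20% 268 were higher and 76 lower. Across the 12977 genes Spearman's rho of length and log2 fold change was 0.204, as a description, since genes of a library are not independent. The part of length in these differences was not tested.

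The smallest adjusted p belonged to a motor gene. KIF1C (ENSSSCG00000017900, chr12:51897763-51924437, minus strand, Sscrofa11.1), a kinesin that carries vesicles toward the plus ends of microtubules, stood at 30.5, 23.8 and 30.6 CPM in the 12 h libraries and at 3.56, 3.85 and 2.95 CPM in the 0 h libraries. The 3 libraries of each time lay close together and far from those of the other time. The rise was 8.17-fold (log2 3.03, SE 0.15, edgeR adjusted p = 7.84e-12). INCA1, an overlapping gene on the opposite strand, had 88 counts over the 6 libraries.

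A second gene of the microtubule system rose by less. MAP1B (ENSSSCG00000016974, chr16:48403526-48498896, plus strand), a microtubule-stabilising protein best known from neurons, had 167, 154 and 174 CPM at 12 h and 75.6, 90.1 and 73.9 CPM at 0 h. Every 12 h library was well above every 0 h library (2.07-fold, log2 1.05, SE 0.07, edgeR adjusted p = 4.95e-09). MRPS27 overlaps it on the other strand with 3783 counts over the 6 libraries; the library kit keeps strand, but whether the counting used it is not given in the sources used here. Of 45 kinesin and dynein genes tested, KIF1C alone was called, and their median log2 fold change was 0.09. At an unadjusted edgeR p under 0.05, 8 of them were higher and 1 lower (20%, beside 11.3% of all genes tested). Of 30 tubulin and microtubule-associated genes tested, 1 was called (MAP1B), with a median of 0.04. At that unadjusted level 4 of them were higher and 3 lower (23.3%).

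ADD2 and CALD1, whose proteins bind actin or act on its filaments, were called in opposite directions. ADD2, beta-adducin, which caps actin filaments and joins them to spectrin (chr3:71730002-71840862), had 3.24, 1.297 and 1.39 CPM at 12 h and 0.166, 0.272 and 0.283 CPM at 0 h (8.04-fold higher, log2 3.01, SE 0.56, edgeR adjusted p = 0.0119). Replicate 1 of 12 h was well above its group, and the call was lost without it or without replicate 2 or 4 of 0 h (adjusted p 0.0651 to 0.118) and in limma-voom (adjusted p = 0.142). CALD1, caldesmon, which binds actin and tropomyosin (chr18:14267955-14539017), fell to 11.5, 10.5 and 10.1 CPM at 12 h, against 14.3, 17.3 and 17.3 CPM at 0 h. The groups did not overlap, with a 1.52-fold lower level at 12 h (log2 −0.61, SE 0.13, edgeR adjusted p = 0.0425). That call was close to the threshold: it was lost when any 12 h or 28 h library, replicate 4 of 0 h or replicate 2 of 44 h was left out (adjusted p 0.0534 to 0.209). CALD1 was the only gene called of 52 actin cytoskeleton genes tested, a list that does not hold ADD2. At an unadjusted edgeR p under 0.05, 9 of the 52 were higher and 7 lower (30.8%, beside 11.3% of all genes tested). Without replicate 3 of 0 h, 1 was called higher and 4 lower (9.62%, beside 1.97% of all genes).

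The anchors of protein kinase A held 2 of the 27 calls. PALM2AKAP2, a fusion locus that encodes a paralemmin and an A-kinase anchoring protein (ENSSSCG00000033120, chr1:250680942-251190239), had 53.6, 52.0 and 44.6 CPM at 12 h and 20.3, 19.4 and 16.3 CPM at 0 h. It rose 2.68-fold (log2 1.42, SE 0.10, edgeR adjusted p = 4.95e-09), by more than any spread within a time. AKAP12, or gravin, a membrane-bound scaffold for protein kinases A and C (ENSSSCG00000031733, chr1:14908115-15017001), had 39.1, 25.2 and 35.3 CPM at 12 h and 16.5, 18.4 and 14.7 CPM at 0 h. Its lowest 12 h library still exceeded the highest 0 h library (2.01-fold, log2 1.004, SE 0.14, edgeR adjusted p = 0.000539). Of 13 A-kinase anchoring genes tested, these 2 were called higher and none lower (15.4%, beside 0.208% of all genes tested). The median log2 fold change of the list was 0.15. No other member had an unadjusted edgeR p under 0.05, so the share at that level was also 15.4%, beside 11.3% of all genes tested. AKAP7, another anchor, had 4.21, 5.84 and 5.26 CPM at 12 h and 5.89, 6.45 and 7.48 CPM at 0 h, lower without overlap (edgeR adjusted p = 0.466). Of 26 cyclic AMP and protein kinase A genes tested none was called by edgeR. An unadjusted p under 0.05 was found for 3 of them (11.5%, beside 11.3% of all genes tested). The lower member with the smallest p was PDE7B, a cyclic AMP phosphodiesterase, with 0.505, 0.432 and 0.163 CPM at 12 h and 1.41, 0.972 and 1.21 CPM at 0 h (edgeR adjusted p = 0.220).

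ZEB2 and WWTR1, both regulators of transcription, rose. ZEB2 (ENSSSCG00000021343, chr15:7499026-7632655), a zinc-finger homeobox repressor known from epithelial to mesenchymal transition, had 9.43, 7.74 and 5.66 CPM at 12 h and 0.705, 0.777 and 0.485 CPM at 0 h. All 12 h libraries lay several-fold above all 0 h libraries, and the rise was 11.5-fold (log2 3.52, SE 0.27, edgeR adjusted p = 4.60e-08). WWTR1, which encodes TAZ, a coactivator that the Hippo pathway keeps out of the nucleus (chr13:89742893-89889187), had 2.06, 1.43 and 3.10 CPM at 12 h and 0.373, 0.428 and 0.0809 CPM at 0 h. It was 7.35-fold higher at 12 h (log2 2.88, SE 0.48, edgeR adjusted p = 0.00372).

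SAMD4A, the vertebrate relative of Smaug, which in Drosophila represses and destabilises maternal messages (ENSSSCG00000023408, chr1:183915339-184140122), had 11.03, 7.13 and 9.70 CPM at 12 h and 2.53, 2.99 and 2.10 CPM at 0 h. The libraries did not overlap (3.65-fold higher, log2 1.87, SE 0.23, edgeR adjusted p = 3.61e-05). TNRC18, a large chromatin protein with a BAH domain, was abundant at both times, with 192, 230.2 and 252 CPM at 12 h and 159, 168 and 168 CPM at 0 h. It rose 1.36-fold (log2 0.45, SE 0.08, edgeR adjusted p = 0.00548). The call was lost without replicate 5 of 12 h or replicate 2 of 0 h (adjusted p 0.0689 and 0.0687). None of 51 genes of deadenylation, poly(A) and RNA decay and none of 69 genes of DNA methylation and histone modification was called by edgeR. Of them 4 (7.84%) and 15 (21.7%) had an unadjusted p under 0.05, beside 11.3% of all genes tested.

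PEA15 and CFLAR, both proteins with death effector domains, rose. PEA15, which binds ERK in the cytoplasm and death-receptor adaptors (ENSSSCG00000032164, chr4:90263584-90274144), had 7.45, 5.40 and 9.21 CPM at 12 h and 1.24, 0.467 and 0.566 CPM at 0 h (9.71-fold, log2 3.28, SE 0.28, edgeR adjusted p = 8.63e-08). CFLAR, a relative of caspase-8 that blocks its activation (ENSSSCG00000016101, chr15:104781615-104844921), had 2.61, 1.64 and 2.24 CPM at 12 h and 0.414, 0.194 and 0.283 CPM at 0 h (7.22-fold, log2 2.85, SE 0.41, edgeR adjusted p = 0.000412). In both, every 12 h library was at least several-fold above the 0 h libraries. Of 22 BCL2 family and apoptosis genes tested none was called by edgeR. An unadjusted p under 0.05 was found for 1 of them (4.55%, beside 11.3% of all genes tested).

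TRIM56, a ubiquitin ligase of antiviral signalling (ENSSSCG00000034347, chr3:8834143-8839415), had 4.30, 3.50 and 3.46 CPM at 12 h and 0.290, 0.272 and 0 CPM at 0 h. It was close to undetected at 0 h and 19.5-fold higher at 12 h (log2 4.29, SE 0.43, edgeR adjusted p = 2.11e-06). TP53INP2, which helps to form autophagosomes (ENSSSCG00000022099, chr17:38104200-38113165), had 39.5, 42.2 and 45.6 CPM at 12 h and 22.05, 23.6 and 23.3 CPM at 0 h. Its libraries were tight within each time (1.85-fold, log2 0.88, SE 0.09, edgeR adjusted p = 3.61e-06). It was the 1 gene called of 42 autophagy genes tested (2.38%, beside 0.208% of all genes tested). Of the 42, 3 were higher and 2 lower at an unadjusted edgeR p under 0.05 (11.9%, beside 11.3% of all genes tested). MAP1LC3B, the coat protein of the autophagosome, had 84.4, 101.2 and 99.4 CPM at 12 h and 119.7, 105.04 and 117 CPM at 0 h, and was not called (edgeR adjusted p = 0.231). Its libraries did not overlap, and it was called lower without replicate 3 of 0 h (edgeR adjusted p = 0.0372).

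PENK and SBSN each averaged under 1 CPM at 0 h. PENK, the precursor of the enkephalin opioid peptides (chr4:75525555-75561444), had 2.32, 2.03 and 0.693 CPM at 12 h and 0.166, 0.155 and 0 CPM at 0 h (15.0-fold, log2 3.90, SE 0.66, edgeR adjusted p = 0.00413), and was not called in limma-voom (adjusted p = 0.1235). SBSN, suprabasin, a secreted protein known from the epidermis (chr6:44960699-44966390), had 2.95, 2.204 and 1.79 CPM at 12 h and 0.290, 0.0777 and 0.0809 CPM at 0 h (15.2-fold, log2 3.92, SE 0.44, edgeR adjusted p = 8.96e-06). Without replicate 2 of 0 h the fold of SBSN was 27.5. Both genes were present in every 12 h library, and PENK varied more within 12 h, with replicate 5 lowest.

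GDF11, a ligand of the TGF-beta family (chr5:21191142-21201818), had 3.96, 1.64 and 3.18 CPM at 12 h and 0.746, 0.622 and 0.485 CPM at 0 h (4.72-fold, log2 2.24, SE 0.38, edgeR adjusted p = 0.00450). The call was lost without replicate 4 of 0 h (adjusted p = 0.0651) and in limma-voom (adjusted p = 0.175), and SARNP overlaps it on the other strand with 5923 counts over the 6 libraries. ANTXR1, a collagen-binding receptor also used by anthrax toxin (chr3:73157752-73398345), had 2.02, 2.42 and 1.06 CPM at 12 h and 0.332, 0.816 and 0.202 CPM at 0 h (3.99-fold, log2 1.996, SE 0.39, edgeR adjusted p = 0.0194). In ANTXR1 the lowest 12 h library was only slightly above the highest 0 h library, replicate 3. Without that 0 h library its fold was 6.72, and without replicate 2 or 4 of 0 h or replicate 1 or 3 of 12 h it was not called (adjusted p 0.0911 to 0.202).

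INHBA, the activin A subunit and a cumulus marker, lay near the threshold. It had 4.38, 3.98 and 3.71 CPM at 12 h and 1.33, 2.29 and 0.890 CPM at 0 h (log2 1.41, SE 0.30, edgeR adjusted p = 0.0574). With every library it was called by edgeR without a filter (adjusted p = 0.00445), by DESeq2 (adjusted p = 0.00217) and in the authors' deposited table (FDR p 0.00587), and not by limma-voom (adjusted p = 0.168). With the filter it was called when replicate 3 of 0 h, 1 of 44 h or 4 of 44 h was left out (edgeR adjusted p 0.00395, 0.0164 and 0.0416). Its 3 libraries of 12 h were all above those of 0 h. The summed cumulus markers given above, whole (mostly ITGA6 and AMH) or below 10 CPM, overlapped between the times. INHBA is itself in both of these sums, so they cannot tell which cells its RNA came from, and that was not tested. Of 38 TGF-beta and BMP pathway genes tested none was called by edgeR, and GDF11 is not on that list. An unadjusted p under 0.05 was found for 4 of the 38 (10.5%, beside 11.3% of all genes tested).

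Genes of Wnt and insulin-like growth factor signalling included 2 of the 4 falls. RSPO2, an R-spondin that strengthens Wnt signals and is made by oocytes (ENSSSCG00000006034, chr4:29414806-29579674), had 162, 167 and 172 CPM at 12 h and 202.5, 202.4 and 218 CPM at 0 h. The fall was small and the libraries did not overlap (1.24-fold lower, log2 −0.32, SE 0.06, edgeR adjusted p = 0.0199). The call was lost without replicate 2 or 4 of 0 h or replicate 1 or 3 of 12 h (adjusted p 0.0626 to 0.161). CCDC88C, or Daple, a Dishevelled-binding protein of Wnt signalling (ENSSSCG00000002440, chr7:112917448-113045686), had 214, 209.98 and 246 CPM at 12 h and 152, 192 and 150.04 CPM at 0 h. It was 1.36-fold higher (log2 0.44, SE 0.09, edgeR adjusted p = 0.0273), with replicate 3 of 0 h close to the 12 h level. It was not called without replicate 1 or 5 of 12 h or replicate 2 or 4 of 0 h (adjusted p 0.0548 to 0.291).

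IGF1, insulin-like growth factor 1 (ENSSSCG00000000857, chr5:81775970-81848037), fell to 0, 0.0432 and 0 CPM at 12 h, against 0.912, 0.544 and 0.485 CPM at 0 h. This was 1 count over the 3 libraries of 12 h and 48 counts over those of 0 h. Pooled, IGF1 was 46.0-fold lower at 12 h, with a 95% counting interval of 7.87 to 1853 (edgeR log2 −5.09, SE 0.95, adjusted p = 0.0124). It was not called without replicate 1 or 5 of 12 h or replicate 2 of 0 h (adjusted p 0.0867 to 0.0961), and the fitted fold was 128 without replicate 3 of 12 h, the library with the 1 count. IGF1 was the only gene called of 14 insulin-like growth factor genes tested, and RSPO2 the only one of 35 Wnt pathway genes, a list that does not hold CCDC88C. These are 7.14% and 2.86%, beside 0.208% of all genes tested. Of the 14, 0 were higher and 2 lower at an unadjusted edgeR p under 0.05 (14.3%). Of the 35, 4 were higher and 2 lower at that level (17.1%, beside 11.3% of all genes tested).

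PDK4 and CYP1B1, which encode metabolic enzymes, rose. PDK4, which phosphorylates and shuts off pyruvate dehydrogenase so that cells spare glucose (ENSSSCG00000015334, chr9:75246002-75260134), had 9.90, 6.70 and 15.4 CPM at 12 h and 0.787, 2.14 and 1.33 CPM at 0 h. The libraries did not overlap, although those of 12 h ranged widely (7.45-fold, log2 2.90, SE 0.39, edgeR adjusted p = 0.000944). CYP1B1, a cytochrome P450 that hydroxylates oestradiol (ENSSSCG00000033844, chr3:102195741-102206750), had 5.31, 4.37 and 5.26 CPM at 12 h and 0.166, 0.389 and 0.809 CPM at 0 h. It was 10.8-fold higher (log2 3.44, SE 0.36, edgeR adjusted p = 3.61e-06), and 17.5-fold without replicate 4 of 0 h. PDK4 was the 1 gene called of 28 fuel-switch genes linked to FOXO factors (3.57%, beside 0.208% of all genes tested). Of the 28, 2 were higher and 0 lower at an unadjusted edgeR p under 0.05 (7.14%, beside 11.3% of all genes tested). None of 38 genes of glycolysis, pentose phosphate and pyruvate and none of 45 lipid genes was called by edgeR. At an unadjusted p under 0.05 there were 4 and 6 of them (10.5% and 13.3%, beside 11.3% of all genes tested). C1orf115 (ENSSSCG00000027882, chr10:10116008-10128719) fell to 6.02, 6.53 and 6.40 CPM at 12 h, against 11.9, 13.5 and 10.4 CPM at 0 h. It was 1.89-fold lower (log2 −0.92, SE 0.16, edgeR adjusted p = 0.00548), and without replicate 1 of 12 h its adjusted p was 0.0512.

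**Figure D2:**
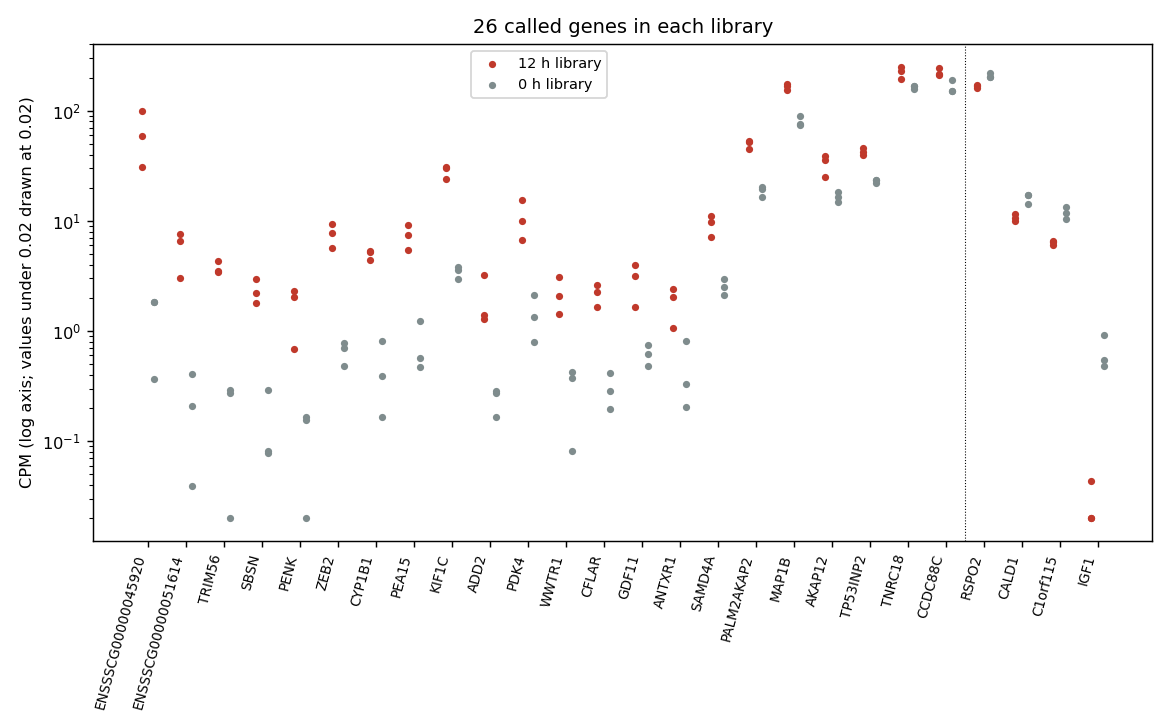
Level of 26 of the 27 called genes (CPM, log axis) in the 3 libraries of 12 h (red, left of each pair) and the 3 of 0 h (grey, right), in order of fold change, with the 4 lower genes right of the dotted line. The red and grey points of a gene do not overlap in any of the 26 drawn; IGF1 at 12 h and PENK and TRIM56 at 0 h reach the lower edge, where values under 0.02 are drawn.

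Levels of different genes were compared per length, by the deposited RPKM. Among called genes, RSPO2 stood highest, at 42.7 ± 1.59 RPKM at 12 h and 53.5 ± 2.85 RPKM at 0 h (SD, n = 3 each). CCDC88C averaged 22.51 RPKM at 12 h and 16.7 RPKM at 0 h, and TNRC18 20.8 RPKM at 12 h and 15.4 RPKM at 0 h. KIF1C averaged 5.29 RPKM at 12 h and 0.652 RPKM at 0 h. ANTXR1 stayed below 0.3 RPKM at both times.

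Rows that carry an identifier and no gene symbol gave 2 of the 27 calls. Of 11942 such rows in the table, 1221 passed the filter, and 0.164% of these were called; of 11756 tested genes with a symbol, 0.213% were. ENSSSCG00000045920 (chr7:105712035-105713609, plus strand, within the span of the RefSeq protein-coding gene LOC102165146) had 58.8, 30.6 and 99.1 CPM at 12 h and 1.82, 1.83 and 0.364 CPM at 0 h. Of the 17 higher genes under 5 CPM at 0 h it had the highest level per length at 12 h, an average of 31.6 ± 17.3 RPKM at 12 h against 0.677 ± 0.425 RPKM at 0 h (SD, n = 3 each). Its rise was 46.7-fold (log2 5.55, SE 0.66, edgeR adjusted p = 0.0140). The 12 h libraries ranged widely, and the call was lost without replicate 1 of 12 h or replicate 2 or 4 of 0 h (adjusted p 0.0548 to 0.101).

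ENSSSCG00000051614 (chr17:33063722-33064859, plus strand, in the span of the protein-coding LOC110257405) had 6.57, 3.03 and 7.54 CPM at 12 h and 0.207, 0.0389 and 0.404 CPM at 0 h. It was 26.0-fold higher at 12 h (log2 4.70, SE 0.52, edgeR adjusted p = 5.09e-05) and 45.5-fold without replicate 4 of 0 h. A further such row, ENSSSCG00000034853 on chromosome Y (25246203 to 25253238), singled out after its values were seen, had 31.5, 16.3 and 44.8 CPM at 12 h and 3.69, 7.31 and 3.07 CPM at 0 h. Its libraries did not overlap, but its edgeR adjusted p was 0.107. DESeq2 called it (adjusted p = 2.58e-06), and in the authors' deposited table its log2 fold change was 2.71 with an FDR p of 1.38e-17. Oocyte donors are female, so the counts of this row cannot be taken as RNA of a chromosome Y gene. Where its reads came from was not tested. Over all 1221 identifier rows, the median log2 fold change was −0.04.

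Rows too scarce for the filter gave no call. There were 4837 of them with at least 1 count in some library, 2071 of them known by identifier only, and none averaged above 11 counts over the 6 libraries. In edgeR's quasi-likelihood fit without a filter, 0 of the 4837 had an adjusted p under 0.05, and DESeq2 without independent filtering also called 0; 164 had an unadjusted p under 0.05 in edgeR, 75 higher and 89 lower at 12 h. Without a filter 64 of 17814 rows were called (0.359%), all of them rows that also pass the filter. The smallest adjusted p of a scarce row, 0.147, was that of PMCH, the precursor of melanin-concentrating hormone, with 1, 0 and 0 counts at 12 h and 7, 20 and 13 counts at 0 h. SEPTIN12, a septin of the sperm annulus, had 1, 0 and 0 counts at 12 h and 12, 3 and 21 counts at 0 h. PMCH and SEPTIN12 were named after their values were seen.

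Complete presence or absence was rare. Only 4 rows had at least 3 counts in every 12 h library and 0 in every 0 h library, and all are named here after their values were seen. They were SLC22A18, an organic cation transporter, with 11, 4 and 7 counts at 12 h, HEATR9 with 6, 8 and 4, C12orf50 with 4, 4 and 7, and ENSSSCG00000048563 with 3, 4 and 4. None of the 4 passed the filter. The reverse pattern was found in 4 rows. TPM2, a tropomyosin, had 0 counts in every 12 h library and 15, 8 and 3 counts at 0 h. Its edgeR adjusted p was 0.0596, against 0.00602 without a filter, 0.0278 without replicate 3 of 0 h and 0.0113 in DESeq2, so it was called in each of these 3 settings. DSPP, a dentine phosphoprotein, had 50, 14 and 24 counts at 0 h (edgeR adjusted p = 0.192), and ENSSSCG00000050845 had 4, 3 and 93 counts at 0 h (edgeR adjusted p = 0.541). HOGA1, a mitochondrial aldolase, had 3, 4 and 5 counts at 0 h and was not tested. TPM2 had counts again at 28 h (27, 36 and 18) and at 44 h (15, 25 and 13).

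The best-known oocyte transcripts showed no called change. BMP15, the oocyte growth factor, averaged 4346 ± 373 CPM at 12 h and 5003 ± 420 CPM at 0 h (SD, n = 3 each; edgeR adjusted p = 0.297). GDF9, its partner, averaged 1318 ± 56.8 CPM at 12 h and 1499 ± 51.5 CPM at 0 h (edgeR adjusted p = 0.249). ZP3, a zona pellucida glycoprotein, had 1103, 1175 and 1388 CPM at 12 h and 1713, 1265 and 1883 CPM at 0 h, where replicate 3 of 0 h lay among the 12 h libraries (edgeR adjusted p = 0.304). Without that library ZP3 was called lower (log2 −0.57, edgeR adjusted p = 0.00323), and so was BMP15 (log2 −0.28, edgeR adjusted p = 0.0308). ZP4, another zona glycoprotein, had 1454, 1635 and 1693 CPM at 12 h and 1922, 1744 and 2109 CPM at 0 h, without overlap (edgeR adjusted p = 0.304). KIT, the receptor for stem cell factor, had 98.6, 97.3 and 89.0 CPM at 12 h and 102.1, 106.01 and 98.9 CPM at 0 h (edgeR adjusted p = 0.671). Of 14 zona pellucida and oocyte growth factor genes tested, none was called by edgeR, and the median log2 fold change was −0.18. At an unadjusted p under 0.05, 6 of them were lower and 0 higher (42.9%, beside 11.3% of all genes tested).

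The cell cycle switch was likewise without a call at the RNA level. WEE2, the oocyte kinase that inhibits CDK1, had 2225, 2088 and 2118 CPM at 12 h and 2020.1, 1958 and 1960.4 CPM at 0 h (edgeR adjusted p = 0.449). MOS, the upstream kinase of the MAP kinase cascade in oocytes, averaged 828 CPM at 12 h and 842 CPM at 0 h (edgeR adjusted p = 0.936), and CCNB1, cyclin B1, 542 CPM at 12 h and 569.5 CPM at 0 h (edgeR adjusted p = 0.691). MAD2L1, a spindle checkpoint protein, was the lower member of its list with the smallest p, with 74.2, 79.0 and 72.8 CPM at 12 h and 111.4, 87.9 and 93.3 CPM at 0 h (edgeR adjusted p = 0.107). Its groups did not overlap, and it was called without replicate 3 of 0 h (edgeR adjusted p = 0.0104), without a filter (edgeR adjusted p = 0.0130) and in DESeq2 (adjusted p = 0.0289). CDK1 itself had 84.8, 91.1 and 95.2 CPM at 12 h and 110.8, 94.5 and 99.2 CPM at 0 h, with overlap (edgeR adjusted p = 0.460). Of 52 meiotic cell cycle genes tested, none was called by edgeR, and their median was −0.0014. At an unadjusted p under 0.05, 4 of them were higher and 2 lower (11.5%, beside 11.3% of all genes tested).

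OOEP, a member of the subcortical maternal complex, came nearer to the threshold, with 125, 127 and 123 CPM at 12 h and 164.5, 144 and 173 CPM at 0 h (edgeR adjusted p = 0.0596). With every library it was called by edgeR without a filter (adjusted p = 0.00554), with library totals as scaling (adjusted p = 0.0336) and by DESeq2 (adjusted p = 0.0113). With the filter it was also called when replicate 3 of 0 h or 4 of 44 h was left out (edgeR adjusted p 0.00488 and 0.0309). DNMT1, the maintenance DNA methyltransferase, averaged 40352 CPM at 12 h and 35437 CPM at 0 h (edgeR adjusted p = 0.344). The 12 maternal-effect genes tested had a median log2 fold change of −0.05 and no call by edgeR. An unadjusted p under 0.05 was found for 3 of them (25%, beside 11.3% of all genes tested).

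The lowest list medians were those of cytosolic ribosomal protein and nuclear-encoded respiratory chain genes, and neither list had a called member. Next came the zona pellucida and oocyte growth factor genes (−0.18) and the oocyte markers (−0.17). The 58 cytosolic ribosomal protein genes tested summed to 4088, 4283 and 4427 CPM at 12 h and 5350.0, 4449 and 5089 CPM at 0 h. The 12 h sums were all lower, but replicate 3 of 0 h was only just above the highest of them. Their median log2 fold change was −0.25, against −0.01 over all genes, 35 of 58 were lower and 0 higher at an unadjusted p under 0.05, and edgeR called 0. Over all genes tested, 5.63% were lower and 5.63% higher at that level. RPL10A, a protein of the large subunit, had 48.0, 45.4 and 58.4 CPM at 12 h and 75.5, 57.8 and 70.8 CPM at 0 h (edgeR adjusted p = 0.157), and was called without replicate 3 of 0 h or 5 of 12 h (edgeR adjusted p 0.0104 and 0.0477) and without a filter (edgeR adjusted p = 0.0258). The 65 nuclear-encoded respiratory chain genes summed to 2272, 2396 and 2509 CPM at 12 h and 2915, 2432 and 2729 CPM at 0 h, with a median of −0.22, 23 lower and 0 higher at an unadjusted p under 0.05, and 0 called by edgeR. There the sum of replicate 3 of 0 h lay inside the 12 h range.

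Of 33 antioxidant genes the median was −0.16 and 6 were lower at an unadjusted p under 0.05 (18.2%). Of 18 histone genes it was −0.14 and 4 were lower (22.2%). Of 68 mitochondrial ribosomal protein genes it was −0.10, with 10 lower and 1 higher (16.2%). Over all genes tested, 11.3% had such a p, 5.63% higher and 5.63% lower. The 13 mitochondrially encoded genes had a median of −0.05 with all libraries, 0.0095 without replicate 3 of 0 h and −0.37 without replicate 5 of 12 h, whose sum was 13680 CPM against 7749 and 6515 CPM in the other 12 h libraries. None of these lists had a called member by edgeR. The median was above 0 for the 69 genes of DNA methylation and histone modification, at 0.09, with 14 higher and 1 lower at an unadjusted p under 0.05. KMT2B, a histone methyltransferase, had 666, 683 and 642 CPM at 12 h and 543, 593 and 572 CPM at 0 h (edgeR adjusted p = 0.257). The part of gene length, associated with the log2 fold change as given above, in these medians was not tested. The 24 immediate early genes, 32 heat shock and chaperone genes and 47 genes of RNA polymerase II and basal transcription had medians of 0.04, −0.01 and 0.02, with 0 called by edgeR and 1, 7 and 8 at an unadjusted p under 0.05.

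**Figure D3:**
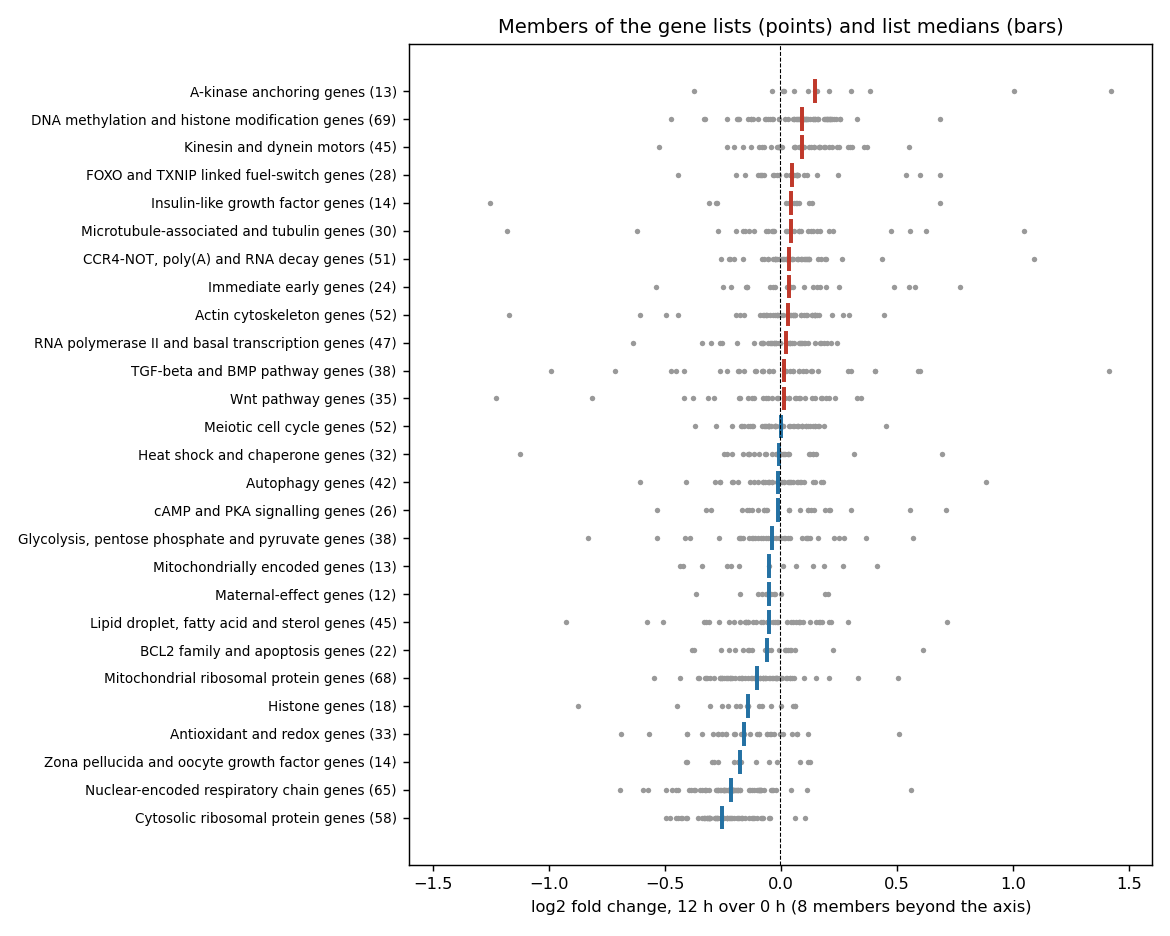
Log2 fold change, 12 h over 0 h, of every tested member (grey points) of each gene list, with the median of the list as a bar; lists run from the highest median at the top to the lowest. Cytosolic ribosomal (−0.25) and respiratory chain genes (−0.22) lie lowest and A-kinase anchoring genes (0.15) highest; 8 members lie beyond the ends of the axis and are not drawn.

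The number of calls depended most on 1 library of 0 h, whose removal raised it, and also on the method, as given above. Without replicate 3 of 0 h, 261 of 13221 genes were called (1.97%), of which 159 were lower (1.2%) and the rest higher (0.771%) at 12 h, and all 27 calls made with every library were among them. Leaving out any other library of the 12 gave between 20 and 31 calls. Replicate 3 of 0 h had the largest total of the 6 libraries. An example named after its values were seen is MYL6, a myosin light chain, with 110.0, 105.8 and 118 CPM at 12 h and 166, 114 and 174 CPM at 0 h, called in DESeq2 also with every library (adjusted p = 0.0356). Of the 58 cytosolic ribosomal protein genes, 19 were called without that library, all lower (32.8%, beside 1.97% of all genes). Of the 65 respiratory chain genes 5 were called lower, of the 14 zona pellucida and growth factor genes 3 were called lower, and of the 45 motor genes 3 were called higher. Without replicate 5 of 12 h, 27 genes were called, 23 of them the same as with every library, and 1 ribosomal protein gene was called. With the 6 libraries alone, TNRC18, CCDC88C, RSPO2, ANTXR1, CALD1, IGF1 and ENSSSCG00000045920 were not called (adjusted p 0.0563 to 0.291). The labels give no batch for any of these libraries.

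**Figure D4:**
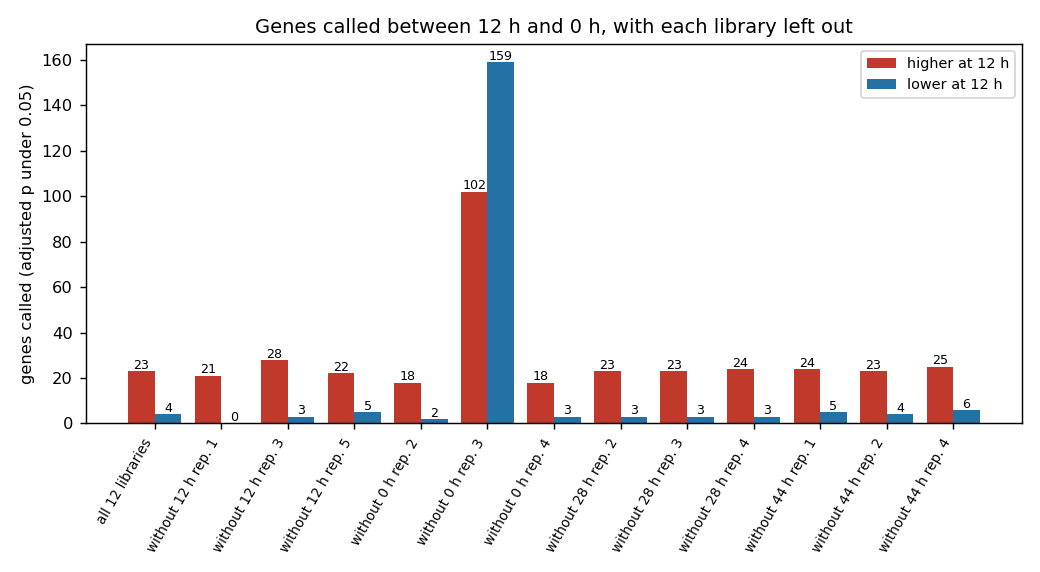
Number of genes called higher (red) and lower (blue) at 12 h with all 12 libraries and with each library left out in turn. Leaving out replicate 3 of 0 h gives 261 calls, 159 of them lower; with any other library left out the counts stay at 18 to 28 higher and 0 to 6 lower.

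The authors' deposited table for 12 h against 0 h lists 39 genes with an FDR p under 0.05, of 14470 with such a value (0.27%), 30 higher and 9 lower. Of the 27 edgeR calls, 24 are among them, which is 88.9% of the edgeR calls and 61.5% of the authors' 39. The 3 others are RSPO2 (FDR p 0.219), CALD1 (0.0570) and IGF1 (0.0709) in the authors' deposited table. For the 27 genes the log2 fold changes of the authors' deposited table and of edgeR differed by at most 0.00885. Of the genes that only the authors' table calls, TPM3, a tropomyosin named after its values were seen, had 0.884, 1.47 and 0.652 CPM at 12 h and 6.84, 5.87 and 4.21 CPM at 0 h. Its libraries did not overlap; the edgeR adjusted p was 0.191, and the authors' deposited table gives log2 −2.50 with an FDR p of 1.20e-11.

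Early rises took different courses after 12 h. Of the 23 genes higher at 12 h, 12 had a still higher mean at 28 h, 22 had a lower mean at 44 h than at 28 h (AKAP12 being the exception), and 21 remained above their 0 h mean at 44 h; no test of these later steps was made here. The 23 genes were picked for low levels in these 0 h libraries, so a 44 h mean above 0 h is partly built in. No share over all genes tested was taken for these counts. KIF1C averaged 3.46, 28.3, 86.3 and 43.98 CPM at 0, 12, 28 and 44 h. ZEB2 followed the same course, with 0.656, 7.61, 30.5 and 9.09 CPM, and both peaked at 28 h. PDK4 differed: it averaged 1.42, 10.7, 1.47 and 1.16 CPM, back at the 0 h level by 28 h. SAMD4A, at 2.54, 9.29, 5.92 and 1.36 CPM, also ended below its 0 h mean. Of the lower genes, all 4 had a 28 h mean above that of 12 h, by little in RSPO2 and C1orf115. IGF1 averaged 0.647, 0.0144, 0.675 and 0.830 CPM, and CALD1 16.3, 10.7, 23.7 and 22.49 CPM. RSPO2 averaged 208, 167, 168 and 166 CPM, and C1orf115 11.9, 6.32, 6.94 and 5.36 CPM. These genes were picked for low levels in the same 12 h libraries, so a higher mean at the next time is partly built in.

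**Figure D5:**
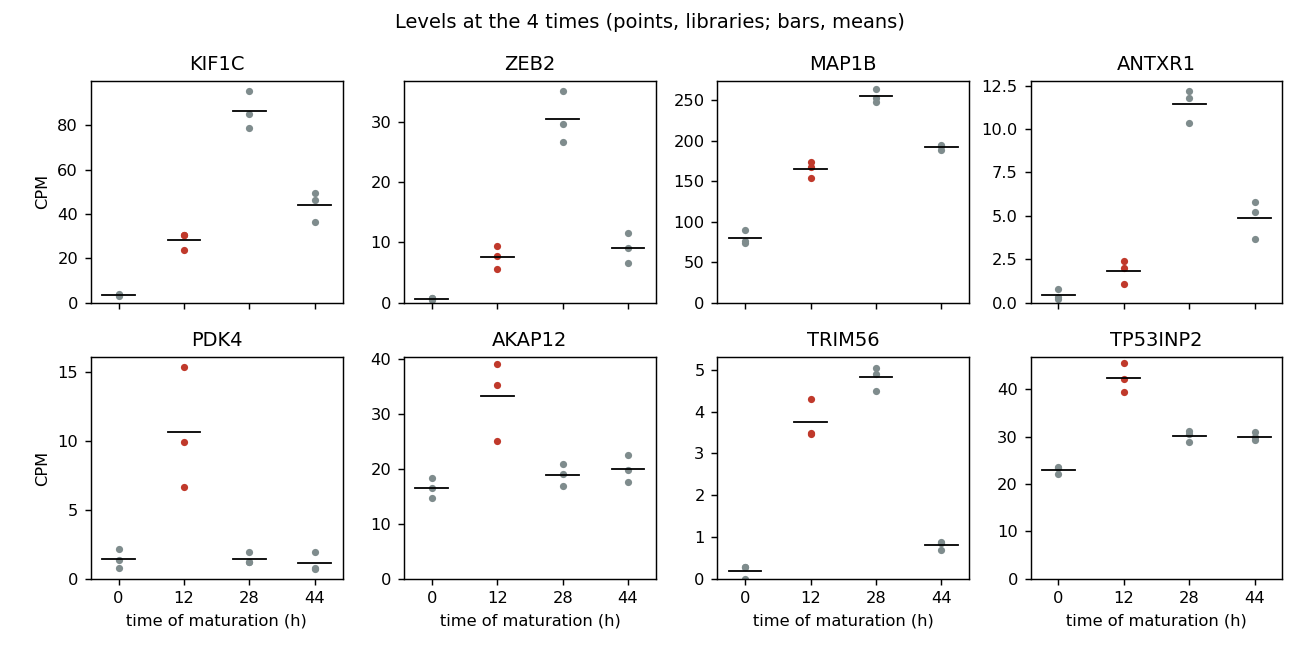
Level (CPM) of 8 genes called higher at 12 h, at 0, 12, 28 and 44 h of maturation; points are the 3 libraries of a time (12 h in red) and bars their means. KIF1C, ZEB2, MAP1B, ANTXR1 and TRIM56 are highest at 28 h, while PDK4, AKAP12 and TP53INP2 are highest at 12 h.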

How the data were processed

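Total RNA of denuded oocytes was isolated with an AllPrep micro kit and made into stranded libraries with a SMARTer Pico kit for paired-end sequencing on a NovaSeq, per the labels' protocols. Build Sscrofa11.1 and the tool DESeq2 appear in the submitters' processing notes; the aligner, the counting of strand and the rule for reads matching several genes are not given in the sources used here. Total counts of reads per gene and library stand in the deposited table, per the file headers, and were the input of every test. RPKM, also deposited by the authors, is by its header a count scaled by library and gene length. From the authors' deposited comparison of 12 h against 0 h, the log2 fold change and FDR p-value of a gene were only set beside the results. A further 24 per-sample columns of other units were not used.

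The table held 28965 rows, of which 16246 carried a symbol, 777 took a symbol from a table of Ensembl names and 11942 had an identifier alone. No 2 libraries, in 66 pairs, were identical. The filter was filterByExpr at a minimum count of 10. TMM factors ran from 0.979 to 1.02, and edgeR 4.0.16 (R 4.3.3) was fitted over all 12 libraries with 1 mean per time and robust estimation of the spread (8 residual degrees of freedom, biological coefficient of variation 10.6%). The contrast 12 h minus 0 h was tested with the quasi-likelihood F test at a Benjamini-Hochberg adjusted p under 0.05 over all genes tested. Rows of low count were tested in the same fit without a filter. Printed levels are CPM, and each fold change is the fitted one at the default prior of edgeR. Totals of 21877235 to 26015373 counts leave counting error small for genes above 10 CPM, and genes at a few counts carry wide intervals.

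Alternatives were RLE and upper quartile scaling, library totals, leaving out the mitochondrial genome, dropping the filter, a minimum of 1 CPM in 3 libraries, the 6 libraries alone, a replicate block, no robust estimation, DESeq2 1.42.0, limma-voom (limma 3.58.1) and leaving out each library. The scripts were tested on simulated data. The rule for names took every called gene (1 is not reported here), the scarce rows called without a filter, the higher and lower member of each list with the smallest p, and a panel of 12 oocyte genes; the text describes a part of the uncalled ones, and other names are said to be chosen after their values were seen. Comparison, gene lists and panel were chosen with earlier results of these data known, so they are no independent support, and lists are described by counts and medians with no test. A search of promoters for motifs was planned but not run, since no sequence was at hand.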

Additional observations from a re-analysis of the deposited data

How the results depend on the processing

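The 27 calls (23 higher, 4 lower at 12 h) kept their direction under every alternative in which they were tested; 17 of the 27 stayed called whichever library was left out, and 14 under all alternatives. RLE and upper quartile scaling and leaving out mitochondrially encoded genes gave 27 calls each. The total was 64 without a filter (36 higher, 28 lower) and 72 in DESeq2 (45 higher, 27 lower; higher calls 0.361% of genes tested, against 0.177%). Lower calls numbered 10 with library totals as scaling and 2 in limma-voom. With 1 library left out, the total ranged from 20 to 261, higher calls from 0.136% to 0.771% of genes tested and lower calls from 0 to 159, each maximum being without replicate 3 of 0 h; the cause was not tested. The 12 h and 0 h libraries share only replicate number 3, so the numbers cannot pair these groups; with a replicate block over all 12 libraries 18 genes were called, 18 higher and 0 lower. Calls lost under the block were those of ADD2, WWTR1, GDF11, AKAP12, CCDC88C and the 4 lower genes. In limma-voom the calls of PENK, ADD2, GDF11, ANTXR1, CALD1 and IGF1 were lost, and with the 6 libraries alone 22 genes were called. Scarce rows called without a filter numbered 0, but 1 without robust estimation, and 0 to 4 with 1 library left out. The row called without robust estimation was IL18R1, whose 63 counts were all in replicate 4 of 0 h. Of the 61 uncalled genes taken by the rule for names, most of which the text does not describe, the sign turned in 3; other uncalled genes were not followed one by one. NDUFAB1 was at log2 −0.18 under the block and between −0.21 (without replicate 5 of 12 h) and 0.84 with 1 library left out. CYTB was at −0.10 under the block and between −0.18 (without the same library) and 0.37. MOS was at 0.031 under the block and between −0.12 and 0.035 with 1 library left out, above 0 without replicate 1 or 5 of 12 h. Of these 61 genes, 15 were called without some library, and all 15 without replicate 3 of 0 h. List medians that changed sign included those of the mitochondrially encoded genes (0.0095) and of RNA polymerase II and basal transcription genes (−0.013) without replicate 3 of 0 h, and of meiotic cell cycle genes (0.033) without replicate 5 of 12 h. Depth limits genes under about 1 CPM, where a few counts set the fold.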

Other observations

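Some genes past the threshold in the authors' deposited table were not called by edgeR with the filter. DERL3, a protein of endoplasmic reticulum degradation named after its values were seen, had 151, 130 and 150 counts at 12 h and 285, 204 and 303 counts at 0 h, with log2 −0.82 and an FDR p of 0.0317 in the authors' deposited table and an edgeR adjusted p of 0.0596 (0.0129 without a filter; 0.00791 in DESeq2). FER1L6, a ferlin also named after its values were seen, had 166, 117 and 195 counts at 12 h and 81, 83 and 88 counts at 0 h, with an FDR p of 0.0436 in the authors' deposited table and an edgeR adjusted p of 0.136 (0.0221 without a filter; 0.0356 in DESeq2). FLNA, the actin cross-linker filamin A, chosen in the same way, had 32, 70 and 41 counts at 12 h and 19, 14 and 10 counts at 0 h, with an FDR p of 0.0331 in the authors' deposited table and an edgeR adjusted p of 0.293 (0.0495 in DESeq2). The groups did not overlap in any of the 3 genes.

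Among scarce rows, those called without a filter when 1 library was left out rested on few libraries. IL18R1, an interleukin receptor, had 63 counts in replicate 4 of 0 h and 0 in the other 5 libraries. CHRND, a subunit of the muscle acetylcholine receptor, had 31 counts in replicate 3 of 12 h and 0 in the others, and DMAC1, a mitochondrial assembly factor, had 6 and 15 counts in replicates 3 and 5 of 12 h and 0 elsewhere. CYTH4 and ENSSSCG00000044317 had 0 counts in every 12 h library and totals carried mainly by replicate 4 of 0 h, with 11 and 25 counts there. SEPTIN12, a septin, had 1, 0 and 0 counts at 12 h and 12, 3 and 21 counts at 0 h, and passed the threshold without replicate 3 of 0 h (edgeR adjusted p = 0.0373). These rows were named after their values were seen.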
